A study of Homo sapiens with 3 samples.

Results

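The very-long-chain fatty acid elongation cycle was followed through 9 genes of a pooled knockout screen, namely the elongases ELOVL1 to ELOVL7 and the reductases HSD17B12 and TECR. They were taken by name, as every gene whose symbol starts with ELOVL, HACD or PTPL or equals HSD17B12 or TECR, and they are 9 of the 2978 genes listed. The library held 90 guide RNAs against them, of which 83 passed the filter of at least 100 counts in the initial population, and all 9 genes kept enough guides to be tested. With 0 HACD or PTPL symbols in the library, the dehydration step of the cycle was not covered.

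The cells were MIA PaCa-2, an established line from a human pancreatic ductal adenocarcinoma, carrying a pooled guide library against metabolic genes after selection with puromycin. Of the 3 sequenced libraries, 1 came from the untreated initial population at day 0, 1 from cells kept for 14 days in the solvent DMSO and 1 from cells kept for 14 days in apilimod, which inhibits the lipid kinase PIKfyve. The labels give 200 nM apilimod, whereas the study's methods name a different dose for this arm, so the dose is not settled. The screen asked which metabolic genes the cells need more, or less, when PIKfyve is inhibited. A guide that becomes rarer marks knockout cells that were outgrown or lost, and slower division and cell death cannot be told apart from these counts.

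Elongation takes place on the cytosolic face of the endoplasmic reticulum. An elongase condenses an activated fatty acid with malonyl-CoA, HSD17B12 reduces the 3-keto product, a dehydratase of the HACD family removes water, and TECR reduces the remaining double bond, which leaves a longer acyl-CoA. The elongases differ in the chains they accept, while the later enzymes serve all of them. The products go into sphingolipids, phospholipids and storage lipids, and the cycle draws on the same malonyl-CoA as the fatty acid synthase.

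The elongases share a feature that was not used to choose them. A run of codons for histidine, any 2 residues and 2 more histidines, the core of the histidine box that marks this enzyme family, was found once in the coding sequence of each of the 7 elongases and 0 times in HSD17B12 or TECR. Among 19820 coding transcripts in GENCODE, 1 per gene, 504 (2.54%) held such a run on the coding strand, so the match is a description and not a site. The sequences are shown because they are what the 7 condensing enzymes share while their guides gave unlike results, with the 5 codons in capitals and hg38 positions of the capitals on the minus strand for all but ELOVL3.
ELOVL1 (chr1:43364588-43364602): ttcctaCATGTCTTCCATCACtctgtg
ELOVL2 (chr6:10995062-10995076): tttcttCATGTATATCATCATgcttct
ELOVL3 (chr10:102228872-102228886): tttattCACTGGTACCACCACagcaca
ELOVL4 (chr6:79921680-79921694): ttccttCATGTGTATCATCACtgtacg
ELOVL5 (chr6:53275145-53275159): gtcctgCACGTCTACCACCATgcctcg
ELOVL6 (chr4:110051701-110051715): ttcctgCACTGGTATCACCACatcact
ELOVL7 (chr5:60764273-60764287): ttccttCATGTATTCCATCATaccatc
Each printed stretch lies within 1 coding exon. Sequences and cut positions of the guides themselves were not analysed here, so where a guide cuts relative to these codons is not given.

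Guide abundance was read as counts. Sequencing gave 24695476 counts for the initial population, 26276517 for DMSO and 25599416 for apilimod, and the 90 guides of the cycle took 56727, 67651 and 55864 of them. For each guide the log2 change against the initial population was taken, and the median change of the 487 control guides, which target intergenic sequence, was subtracted, so that 0 stands for a cut without a gene. A gene score is the mean over a gene's guides, and its SD is over guides within a library. Scores are centred log2 values throughout. A gene was called from an exact rank-sum test, two-sided, of its guides against the control guides, at a Benjamini-Hochberg adjusted p under 0.05 over 2969 genes. With 1 library per group, no difference below has a replicate check, and each test compares these libraries, not the conditions. Both arms were set against the same initial library, so their scores are not independent.

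The cycle's calls lay in its reductases and in 2 elongases. HSD17B12, TECR, ELOVL1 and ELOVL5 were called lower in apilimod, so 4 of 9 genes, beside 29.0% of all genes tested, and 0 were called higher, beside 0.236%. In DMSO 0 of 9 were called lower, where 18.9% of all genes were, and 1 of 9, ELOVL1, was called higher, where 0.842% of all genes were. Between the arms 1 of 9, again ELOVL1, was called lower in apilimod, beside 0.573% of all genes, and 0 were called higher, beside 0.202%. With so few genes, 4 of 9 beside 29.0% is not read as a result about the cycle. The median score of the 9 genes was −0.04 in DMSO, where all genes had −0.17, and −0.08 in apilimod, where all genes had −0.26.

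ELOVL1, which elongates saturated and monounsaturated very-long-chain acyl-CoAs and supplies acyl chains for sphingolipids, rose in DMSO and fell in apilimod. It lies on chromosome 1 (hg38, chr1:43363398-43368074, minus strand) and has 8 exons in the transcript used. Its 10 guides ranged from 168 to 1419 counts in the initial population, with a median of 457. In DMSO they ranged from 261 to 3857 counts, with a median of 668.5. In apilimod the range was 108 to 1412 and the median 385. The guides thus overlapped widely between libraries in raw abundance, and the contrast lay in the change of each guide. Summed over the 10 guides, ELOVL1 made up 256 counts-per-million (CPM) in the initial population (exact 95% binomial interval 249 to 262), 442 in DMSO (434 to 450) and 208 in apilimod (203 to 214). These intervals cover counting error only and do not overlap. Guide 4, the most abundant, went from 57.5 CPM to 147 in DMSO and 55.2 in apilimod. Guide 2 went from 8.34 to 16.2 in DMSO and 4.22 in apilimod. Guide 9 was the clearest exception in DMSO, with 17.9 CPM at the start, 9.93 in DMSO and 7.97 in apilimod.

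**Figure D1:**
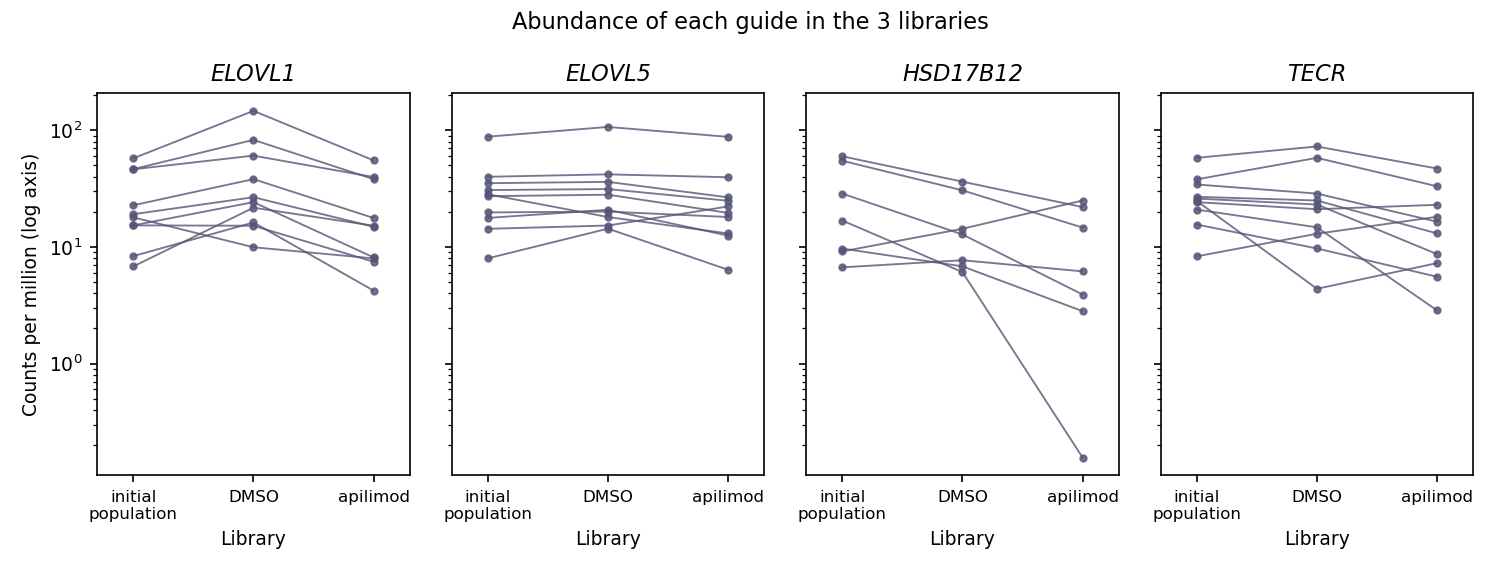
Counts-per-million (CPM) of each kept guide (log axis) in the initial population, DMSO and apilimod libraries for ELOVL1, ELOVL5, HSD17B12 and TECR; each line is 1 guide and each library is 1 sample. The lines of all 10 ELOVL1 guides fall from DMSO to apilimod, as do 6 of 7 for HSD17B12.

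In DMSO, 8 of 10 ELOVL1 guides lay above the control median, and the gene score was 0.48 ± 0.70 (SD over guides, n = 10; adjusted p = 0.0150, exact rank-sum test). That was the fourth highest score of 2969 genes. In apilimod, 9 of 10 guides lay below the control median, with a score of −0.64 ± 0.68 (adjusted p = 0.00130, exact rank-sum test). That score was the 582nd lowest of 2969 genes. Guide 6 was the one that stayed above the control median, at 0.93 in apilimod and 1.53 in DMSO. Of the 25 genes called higher in DMSO, ELOVL1 was the 1 that was called lower in apilimod. Its call in DMSO ended when guides needed 300 initial counts, with a score of 0.30 over 8 guides (adjusted p = 0.119, exact rank-sum test).

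Set directly against DMSO, every ELOVL1 guide was rarer in apilimod. The difference between the arms, apilimod minus DMSO after centring on the control guides, ranged from −2.01 for guide 2 to −0.40 for guide 9, with a median of −1.15. The mean was −1.13 ± 0.50 (SD over guides, n = 10), and all 10 guides lay below the control median. Among them 7 of 10 also lay below the central 95% of the control guides, which ran from −0.81 to 2.50. For the direct test and for ranking genes, each arm was put on a scale. On it the median control guide stands at 0 and the median of 28 nucleotide synthesis genes at −1. The direct test used guide differences on that scale, whereas differences given in log2 units are unscaled. The gene difference on that scale, centred on the mean gene, was expressed in SDs over genes as a z score. The median z was −0.50 for the 9 genes and −0.02 for all genes. ELOVL1 had a z of −3.95, the eighth lowest of 2969 genes, and was called lower (adjusted p = 2.69e-06, exact rank-sum test). Of the 17 genes called lower in that comparison, 4 had every guide below the control median, namely ELOVL1, FASN, PLA2G2F and SLC1A7. The ELOVL1 call held in all 12 alternative settings tried, with a z between −4.29 and −3.42. The setting with the counts of the whole-series table could not differ, because those counts equalled the library files.

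**Figure D2:**
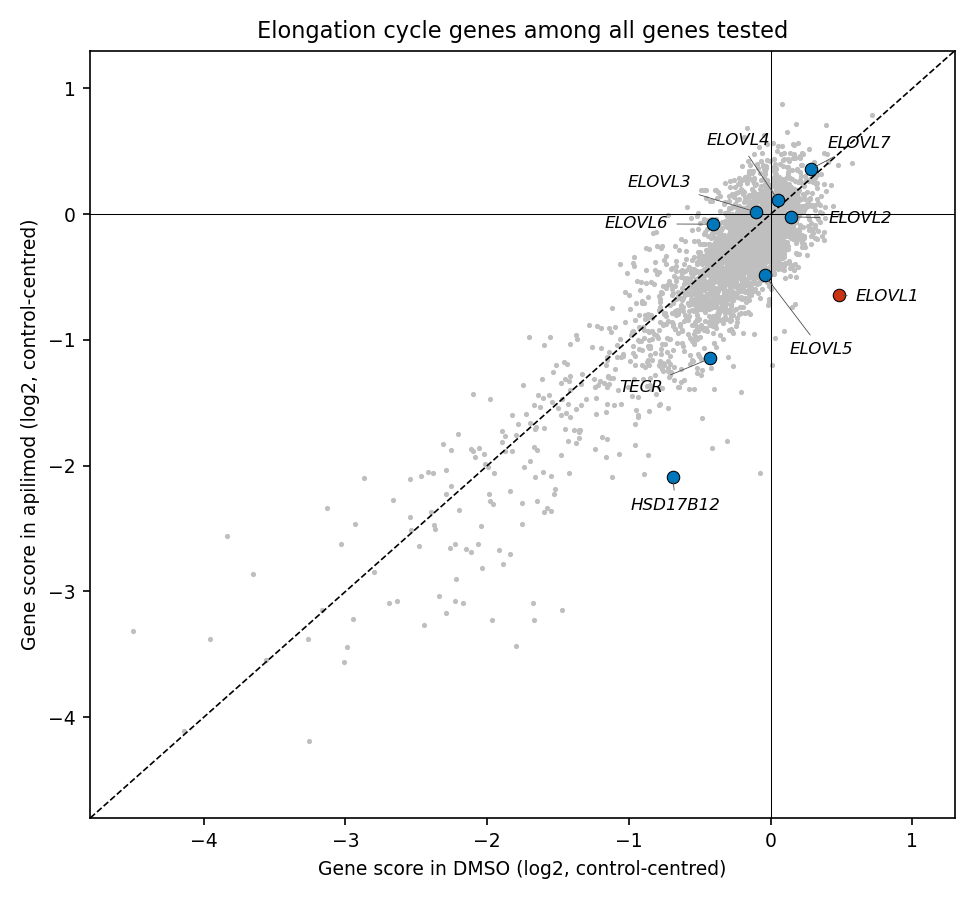
Gene scores in DMSO (horizontal) against apilimod (vertical), both in centred log2 units, for 2969 genes (grey), with the 9 elongation cycle genes labelled; the dashed line marks equal scores, and red marks the member called lower in apilimod against DMSO. ELOVL1 sits right of the cloud at 0.48 and −0.64, and HSD17B12 sits lowest of the members in apilimod at −2.09.

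HSD17B12, the 3-ketoacyl-CoA reductase of the cycle, had the lowest score of the 9 genes in both arms. It lies on chromosome 11 (hg38, chr11:43680680-43856617, plus strand). Of its 10 guides, 7 passed the count filter. Guide 10 dropped from 416 counts in the initial population to 160 in DMSO and 4 in apilimod. Guide 4 went from 708 counts to 336 and 100, and guide 5 from 1477 to 953 and 562. Guide 9 went from 1354 counts to 803 and 375, and guide 7 from 239 to 179 and 72. Those 5 guides were lower in DMSO than at the start and lower again in apilimod. Guide 1 had 165, 202 and 158 counts, and guide 2 moved the other way, with 226 counts at the start, 376 in DMSO and 640 in apilimod.

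Across the 7 kept guides the HSD17B12 score was −0.69 ± 0.74 in DMSO (adjusted p = 0.0512, exact rank-sum test) and −2.09 ± 2.45 in apilimod (adjusted p = 0.00750, exact rank-sum test). The gene was therefore called lower in apilimod, where its score was the 65th lowest, with 6 of 7 guides below the control median. The DMSO value sat at the threshold and was called lower in 5 of 8 alternatives. With guides down to 30 initial counts let in, for example, the gene was called with a score of −1.28 over 9 guides (adjusted p = 0.0137, exact rank-sum test). The guides added there were guide 6, at −0.23 in DMSO in the main centring, and guide 8, at −6.46. Guide 8 had 0 counts in DMSO, so its value is set by the pseudocount. The difference between the arms was −1.40 ± 1.80, with guides from −5.05 to 0.72 and a median of −1.14. Its z of −4.16 was the sixth lowest of all genes and the lowest of the cycle, but the direct test did not call it (adjusted p = 0.113, exact rank-sum test). With each gene's farthest guide left out, which here was guide 10, the apilimod score was −1.33 and the z −2.78, and the call in apilimod was kept (adjusted p = 0.0290, exact rank-sum test).

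The 3 HSD17B12 guides under the filter differed among themselves. Guide 6, just under it with 96 initial counts, had 96 in DMSO and 7 in apilimod, a difference of −3.64. Guide 8 had 74 counts at the start and 0 in both later libraries, where 0 allows up to 3 counts. Guide 3 had 0, 0 and 5 counts and carries no information on change. The nearest member guide inside the filter was guide 3 of ELOVL4, with 120 initial counts, 261 in DMSO and 264 in apilimod.

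TECR, the trans-2-enoyl-CoA reductase that completes the cycle, fell in apilimod. It lies on chromosome 19 (hg38, chr19:14517085-14565980, plus strand) and kept all 10 guides. Its guides ranged from 205 to 1434 counts in the initial population (median 627), from 115 to 1909 in DMSO (median 580) and from 73 to 1203 in apilimod (median 377.5). The summed abundance was 277 CPM at the start, 270 in DMSO and 175 in apilimod. The initial population and DMSO thus lay close together and apilimod lay below both. The score was −0.42 ± 0.89 in DMSO (adjusted p = 0.192, exact rank-sum test) and −1.15 ± 1.11 in apilimod (adjusted p = 0.000420, exact rank-sum test), where 9 of 10 guides lay below the control median. Guide 8 behaved unlike the rest. It had 613 counts at the start, 115 in DMSO and 186 in apilimod, the strongest loss of the 10 in DMSO. Guide 6 showed the widest gap between the arms, with 516 counts at the start, 387 in DMSO and 73 in apilimod. The difference between the arms was −0.72 ± 0.91, 7 of 10 guides lay below the control median, and 6 of those lay below the central 95% of the control guides. With a z of −2.03, the 41st lowest, TECR was not called in the direct test (adjusted p = 0.223, exact rank-sum test).

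**Figure D3:**
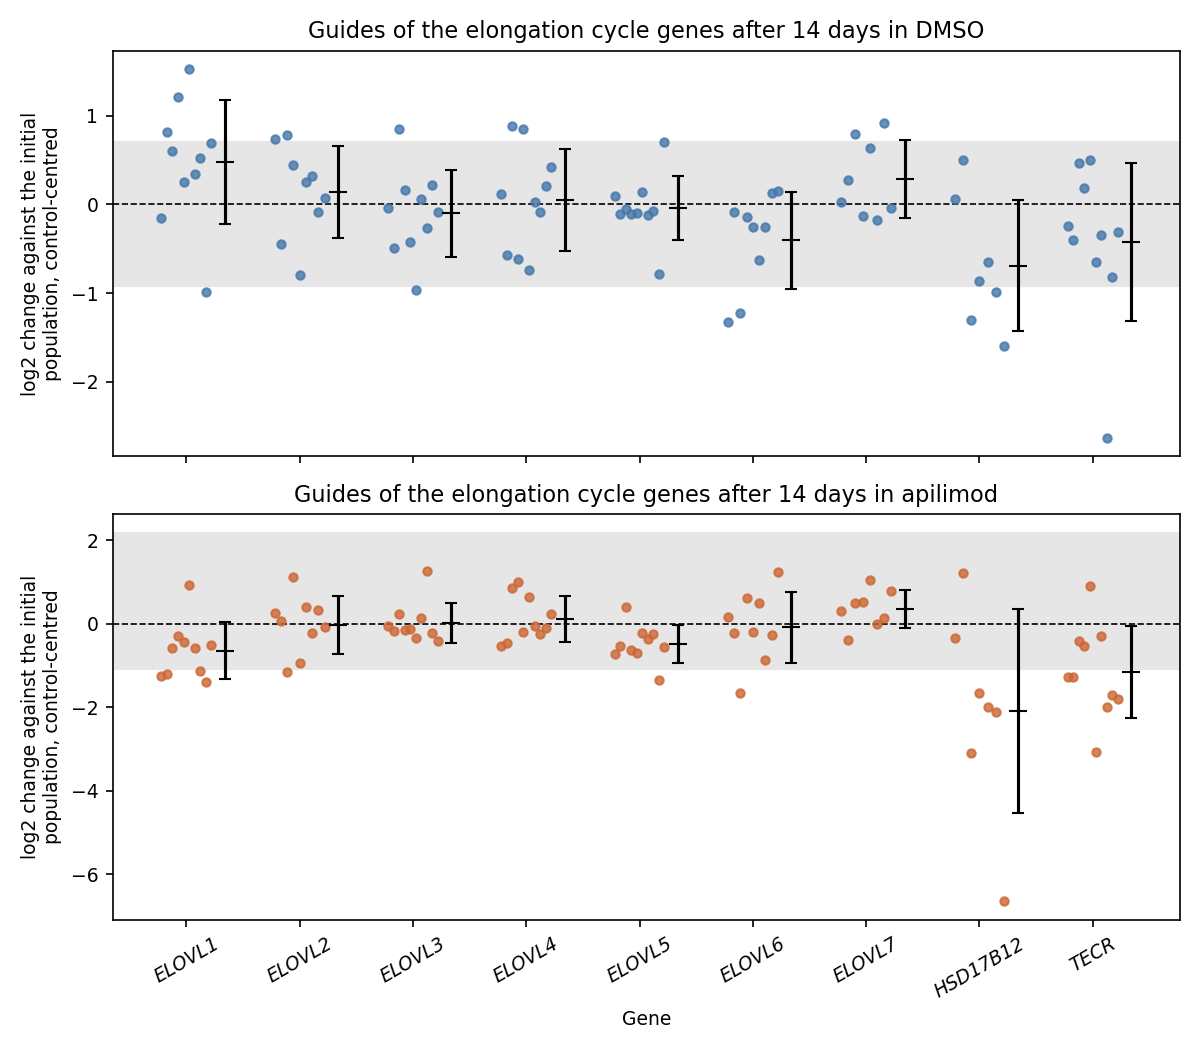
Centred log2 change of each kept guide against the initial population in DMSO (top) and apilimod (bottom), with the mean and SD over guides in black and the central 95% of 487 control guides in grey; the 2 vertical axes differ. In apilimod 6 of 10 TECR guides and 5 of 7 HSD17B12 guides lie below the grey band, against 1 of 10 and 3 of 7 in DMSO.

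ELOVL5, which elongates polyunsaturated acyl-CoAs, also fell in apilimod, by a smaller margin. It lies on chromosome 6 (hg38, chr6:53267398-53349179, minus strand). Its guides ranged from 197 to 2177 counts in the initial population (median 685), from 377 to 2807 in DMSO (median 642) and from 163 to 2249 in apilimod (median 535). The score was −0.04 ± 0.36 in DMSO (n = 10; adjusted p = 0.821, exact rank-sum test) and −0.49 ± 0.45 in apilimod (adjusted p = 0.00541, exact rank-sum test). Of its guides, 9 of 10 lay below the control median in apilimod, although 1 of 10 lay below the central 95% of the control guides. Guide 9 was that guide, at −1.34, and guide 3 was the 1 above the control median, at 0.41. The mean difference between the arms over the 10 guides was −0.45 ± 0.44, with guide 10 lowest at −1.25 and guide 3 highest at 0.46. The z was −1.34 (adjusted p = 0.223, exact rank-sum test). With the farthest guide of every gene left out, which for ELOVL5 was guide 3, ELOVL5 was called lower in the direct test at a z of −1.72 (adjusted p = 0.0190, exact rank-sum test), in a setting where 62 genes were called lower in place of 17.

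The other elongases were called in neither arm and not between the arms. ELOVL2, which acts on longer polyunsaturated chains after ELOVL5, scored 0.14 ± 0.52 in DMSO and −0.02 ± 0.69 in apilimod (n = 9). Guide 3 of ELOVL2 stood apart, with 142 counts at the start, 287 in DMSO and 77 in apilimod. ELOVL3, best known from skin and brown fat, scored −0.10 ± 0.49 and 0.02 ± 0.48 (n = 10). ELOVL4, which makes the longest chains of retina, skin and brain, scored 0.05 ± 0.57 and 0.12 ± 0.55 (n = 10). For these 3 genes the means in both arms lay within 1 SD over guides of the control median.

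ELOVL6, which extends palmitate to stearate at the junction with the fatty acid synthase, had the highest z of the cycle, at 1.48 (adjusted p = 0.742, exact rank-sum test). Its score was −0.40 ± 0.55 in DMSO (n = 9; adjusted p = 0.114, exact rank-sum test) and −0.08 ± 0.85 in apilimod. Single ELOVL6 guides pointed both ways. Guide 1 had 713 counts at the start, 333 in DMSO and 963 in apilimod, whereas guide 8 had 1877, 1838 and 1235. ELOVL7, an elongase of saturated long chains, scored 0.29 ± 0.44 in DMSO and 0.36 ± 0.45 in apilimod (n = 8; adjusted p = 0.163, exact rank-sum test). It was the highest member in apilimod and the second highest in DMSO. Guides under the filter were 1 each for ELOVL2 (40 initial counts) and ELOVL6 (41) and 2 for ELOVL7 (1 and 19).

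**Figure D4:**
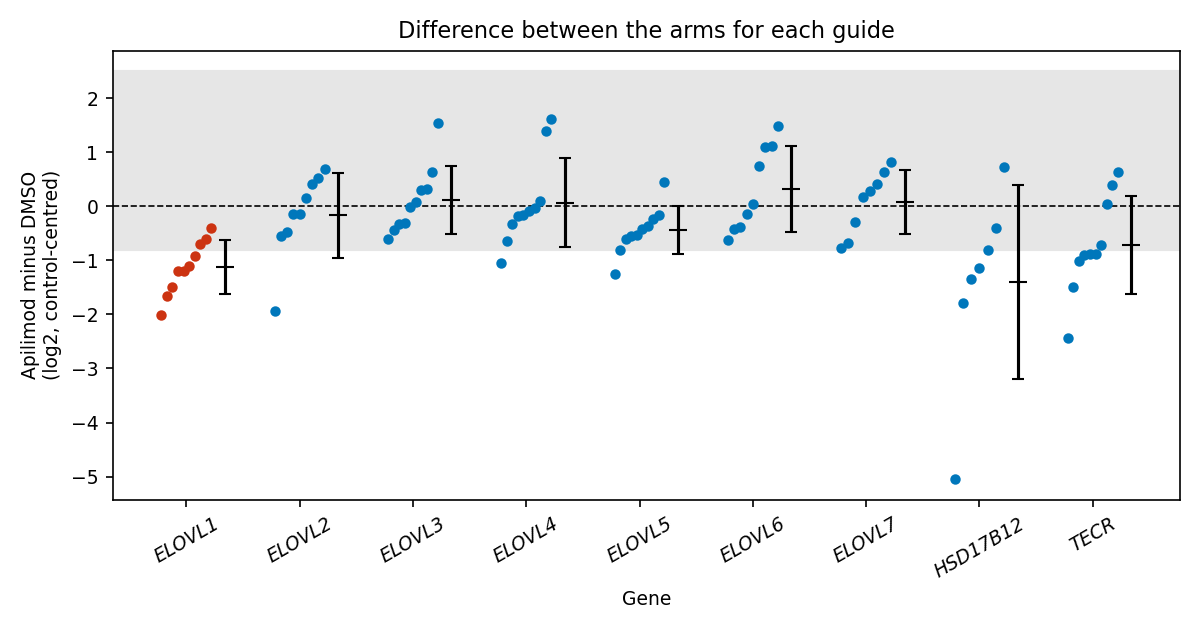
Difference between the arms, apilimod minus DMSO in centred log2 units, for each kept guide of the 9 genes sorted within a gene, with the mean and SD over guides in black and the central 95% of the control guides in grey; red marks the gene called lower. The 10 ELOVL1 guides lie between −2.01 and −0.40, and the HSD17B12 guides spread from −5.05 to 0.72.

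By step, the kept guides of the 7 elongases had a median of 0.02 in DMSO and −0.20 in apilimod (66 guides). The first reduction, by HSD17B12, had medians of −0.86 and −1.99 (7 guides). The second reduction, by TECR, had medians of −0.33 and −1.27 (10 guides). Both single-gene steps thus lay lower than the elongase guides as a group in each arm, by values that come from 1 gene each and were not tested against each other.

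The control guides set the zero of every value above, and they were less even in apilimod than in DMSO, with an SD of 0.73 against 0.40. Before centring, the median log2 change of the 20 control guides with 100 to under 200 initial counts was −0.06 in DMSO and 1.91 in apilimod, while 2216 gene-targeting guides in that range had medians of −0.02 and 0.21. Its part in the results was not tested beyond the settings that follow. With the control guides limited to those of at least 200 initial counts, all 4 calls in apilimod and the direct call of ELOVL1 were kept. When every guide served as the null instead, the 4 calls in apilimod ended (adjusted p = 0.226 for ELOVL1, 0.498 for ELOVL5, 0.0813 for HSD17B12 and 0.0556 for TECR, exact rank-sum test), and the direct call of ELOVL1 stayed (adjusted p = 0.000105, exact rank-sum test).

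The genes whose pair of scores lay nearest to those of ELOVL1 were, in order of distance in the plane of both arms, MSMO1, WWOX, SLC1A7, PLA2G2F and NANS. MSMO1, a sterol methyl oxidase of cholesterol synthesis, was nearest at a distance of 0.32, with 0.17 in DMSO and −0.71 in apilimod. WWOX, an oxidoreductase with WW domains, lay 0.33 away, with 0.18 and −0.50. SLC1A7, a glutamate transporter, lay 0.35 away, and PLA2G2F, a secreted phospholipase, 0.36. NANS, a sialic acid synthase, lay 0.38 away. Choice by both scores favours genes with a like difference between the arms, and the first 4 were called lower there. ELOVL1 had a higher DMSO score than any of the 5.

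Pathways that feed the cycle or use its products were set beside it by counts and medians. Of all genes tested, 18.9% were called lower in DMSO, 29.0% in apilimod and 0.573% between the arms. The shares called higher were 0.842%, 0.236% and 0.202%. Counts in this list and those below were not tested against these shares. Of 10 genes of fatty acid synthesis, 3 were called lower in DMSO and 6 in apilimod. FASN, SLC25A1 and ACACA, 3 of the 10, were called lower between the arms. FASN, the synthase itself, had a z of −6.50, the mitochondrial citrate carrier SLC25A1 −4.72 and ACACA, which makes malonyl-CoA, −4.50. SCD, the desaturase that introduces the first double bond, was called higher, at a z of 4.54 (adjusted p = 0.0310, exact rank-sum test). Its scores were −3.96 ± 2.98 in DMSO and −3.37 ± 3.10 in apilimod (SD over guides, n = 6). The unscaled difference of SCD was 0.58 ± 0.64. Of all genes, 6 were called higher between the arms in the main setting and 1 without scaling, and whether SCD was that gene is not given. The median z of the fatty acid synthesis list was −0.70. ACLY, which makes cytosolic acetyl-CoA from citrate, had a z of 1.84 and was not called between the arms.

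Among 12 genes of ceramide synthesis, a pathway that can take up ELOVL1 products, 4 were called lower in DMSO and 6 in apilimod. Between the arms 0 were called lower, and the median z was −0.43. KDSR, the reductase after serine palmitoyltransferase, had the lowest z, −2.17 (adjusted p = 0.0658, exact rank-sum test). CERS2, the ceramide synthase for very-long-chain acyl-CoAs, fell in both arms, to −0.79 in DMSO and −1.37 in apilimod, with a z of −1.34. CERS1 had a z of −1.32 and CERS5 the highest, 1.00. Of these 12, 0 were called higher in DMSO.

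Genes of desaturation and activation act beside the cycle. Of 6 desaturases, 3 were called lower in DMSO and 4 in apilimod, and between the arms 0 were called lower and 1, SCD, higher, with a median z of −0.52. FADS1 and FADS2, which desaturate the polyunsaturated chains that ELOVL5 and ELOVL2 extend, had z of −1.57 and −1.05. Of 13 acyl-CoA synthetases, 5 were called lower in DMSO, 7 in apilimod and 0 between the arms, with a median z of −0.37. SLC27A4, which activates very-long-chain acids, was lowest at −2.17, and ACSL5 was highest at 1.09.

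Relatives of the enzymes that are not part of the cycle were also measured. TECRL, a paralogue of TECR, scored −0.13 ± 0.35 in DMSO and 0.16 ± 0.36 in apilimod (n = 10), with a z of 1.20. HSD17B3, which reduces steroids, scored −0.19 and −0.37. HSDL1, a related short-chain dehydrogenase protein, was called lower in apilimod, at −0.54 ± 0.30 (n = 7; adjusted p = 0.00584, exact rank-sum test). Of these 6 genes, 0 were called in DMSO, 1 was called lower in apilimod and 0 between the arms, with a median z of −0.33.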

How the data were processed

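Guide abundance was measured by sequencing amplified guide sequences from genomic DNA of 3 pools, 1 per group. The authors deposited raw counts per guide, from reads that, per the study's methods and the submitters' processing notes, were trimmed with cutadapt 4.1, aligned with Bowtie2 2.4.5 and counted with MAGeCK 0.5.9.5. No molecular identifiers were used, so counts are PCR copies and intervals cover counting error only. The table of the whole series equalled the library files in 90591 of 90591 values.

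Guides below 100 initial counts and genes below 6 guides were left out, which kept 28042 guides of 2969 genes beside 487 of 499 control guides. A pseudocount of 1 was added, counts were divided by library totals, and log2 changes were averaged per gene. The reference list for the scaling stands in for the study's own list of essential genes. Tests were exact two-sided rank-sum tests with ties at mid-rank, with Benjamini-Hochberg adjustment over all genes. They were tried on simulated counts, whose background changes were drawn from the control guides, without the scaling of the direct test. That trial therefore does not check the scaled test. Count models have no residual degrees of freedom here and were not used. The members, gene lists and alternatives were chosen with earlier results of these data known. Every member was named, with the 5 genes nearest to a member called between the arms, and in each other list the called genes and at most 4 more of lowest and highest z. A further list, N-glycosylation, served as an alternative reference. Lists overlap in SCD. Some results are not reported here. Python 3.11.15, numpy 2.4.6, pandas 2.3.3 and scipy 1.17.1 were used. Gene positions came from GENCODE v44 on hg38.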

Additional observations from a re-analysis of the deposited data

Results flagged for a closer look

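ELOVL1 is set apart because its change against the initial population differed between the arms by a test of the difference itself. Its score was 0.48 ± 0.70 in DMSO and −0.64 ± 0.68 in apilimod (SD over 10 guides), and its z for apilimod against DMSO was −3.95 (adjusted p = 2.69e-06, exact rank-sum test). All 10 guides lay below the control median in that difference. Each arm was 1 library, and the part of differences between cultures was not tested.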

How the results depend on the processing

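In 12 alternative settings, 252 of 264 values recomputed for the members kept their direction or lack of a call, 5 lost a call, 7 gained one and 0 called values changed sign. The counts of the whole-series table equalled the library files, so that setting could change none of them. The median over guides as gene score could not change a call against the initial population, because that test does not use the gene score. With all guides as the null, genes called lower went from 560 to 227 in DMSO, from 862 to 229 in apilimod and from 17 to 7 between the arms, and genes called higher from 25 to 50 in DMSO and from 7 to 79 in apilimod. Of the members, 0 were then called lower in apilimod instead of 4, and 1, ELOVL7, was called higher (adjusted p = 0.0293, exact rank-sum test). Without scaling, 36 genes were lower and 1 higher between the arms, against 17 and 6, and scaling to N-glycosylation genes left 8 lower and 17 higher. The adjusted p without scaling was 0.0554 for HSD17B12, 0.131 for TECR and 0.115 for ELOVL5 (exact rank-sum test).

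Without each gene's farthest guide, 54 genes were called higher in DMSO and 14 in apilimod, with 62 lower and 1 higher between the arms, and 2 members, ELOVL1 and ELOVL5, were lower between the arms. HSD17B12 became the 1 member called lower in DMSO in that setting, with a minimum of 30 initial counts, with no minimum, with a pseudocount of 10 and with control guides of at least 200 initial counts. The farthest guide was found for each comparison, and for HSD17B12 in DMSO it was guide 2, its highest guide there at 0.50. A minimum of 300 left 0 members called higher in DMSO and too few guides for HSD17B12 and ELOVL7. Genes called higher in apilimod numbered 13 with a minimum of 300, 12 with no minimum and 14 with control guides of at least 200 initial counts. Genes called higher between the arms numbered 2 with a minimum of 30, a minimum of 300, no minimum, a pseudocount of 10, the guide median of the reference, or the median over guides as gene score. Apart from the changes of null and of scaling, which alter what the guides are set against, the cause was not tested. The direct z of HSD17B12 lay between −4.68 and −2.78 and that of TECR between −3.02 and −1.60, with 0 of these values called (adjusted p 0.0554 to 0.321 and 0.0753 to 0.511, exact rank-sum test).

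No paired analysis was possible because each group held 1 library. Spread between cultures could not be measured, guides of low initial count had few counts to lose, and a guide's cutting efficiency was not measured.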

Other observations

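Cytochrome b5 and its reductases carry electrons to the desaturases of the endoplasmic reticulum. Of 6 genes for microsomal electron transfer, 3 were called lower in each arm, CYB5R3, CYB5R4 and POR, and 0 between the arms, with a median z of 0.64. Of all genes tested, 18.9% were called lower in DMSO, 29.0% in apilimod and 0.573% between the arms. CYB5R3 scored −0.76 ± 1.33 in DMSO and −1.25 ± 2.41 in apilimod (n = 9), with a z of −1.04, and CYB5A had a z of 1.09.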
